A study of Mus musculus with 24 samples.

Results

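The genes described here encode the calcium, sodium and TRP channels of β cells, together with the intracellular calcium release channels and the HCN pacemaker channels. They were the protein-coding rows of the count table whose symbols named a voltage-gated calcium channel subunit (Cacna, Cacnb, Cacng, Cacna2d), a voltage-gated sodium channel subunit (Scn), a TRP channel of the A, C, M or V family, a ryanodine receptor (Ryr), an inositol trisphosphate receptor (Itpr) or an HCN channel. The rule took 69 of the 33619 genes in the table by name, without regard to level or change. Of these, 49 passed the filter on low counts and were tested among 19235 genes.

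The dams were CD1 mice about 7 weeks old. For 2 weeks they ate control chow (ND), chow rich in fat (the high-fat diet, HFD) or chow poor in protein (the low-protein diet, LPD), after which they were paired with males carrying Ins1Apple, an allele that makes the Apple fluorescent protein from the Ins1 locus and so marks β cells. All offspring carried the genotype label Ins1Apple and all animals ate the control diet after birth, so that by design the groups differed in what the mother had eaten and in sex. Islets were taken at about 7 weeks, dispersed, and sorted for Apple, and RNA was depleted of ribosomal RNA before strand-specific sequencing. There were 6 groups of 4 libraries, namely ND, HFD and LPD daughters (females) and sons (males), 24 in all. The labels do not name a dam, a litter or a pool of animals behind a library, so the p-values below measure the spread between these samples, part of which may be technical.

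β cells are electrically excitable. When glucose closes their potassium channels, the membrane depolarises, voltage-gated calcium channels open, and the calcium that enters drives insulin granules to fuse, while inositol trisphosphate receptors release calcium from the endoplasmic reticulum. Sodium channels shape the action potentials in mouse β cells, and several TRP channels pass a depolarising cation current that makes firing more likely.

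The libraries held 12433228 to 26375565 counts, and all 10 β-cell markers examined averaged at least 1 CPM (a gene's counts scaled to the library total) in every group. The 4 HFD female libraries had few genes detected, 13225 to 19404 against 19160 to 25830 in the other 20. The ranges overlapped only in that LPD male 2, at 19160, was below HFD female 2, at 19404. The summed level of 8 hepatocyte markers was 60.8 to 203 CPM in the 8 HFD libraries and at most 0.379 CPM in the other 16, with all 8 markers averaging at least 1 CPM in both HFD groups and none in the others. Ins2 was lowest in LPD females 1 to 3, LPD male 4 and ND female 2, at 20256 to 50372 CPM. The table carries 2 sets of labels that conflict. Diet and sex were taken from the column names, which match Xist and Ddx3y counts in all 24 libraries, whereas the library numbers above them would place all 24 columns in another diet and 8 of them in the other sex. The direction of each diet comparison below holds for the column names, and most turn round under the numbers.

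In ND β cells the channel genes spanned a wide range of levels. Expression was compared between genes as FPKM, counts scaled by gene length and by library total, over the 8 ND libraries. The level was at least 1 FPKM for 24 of the 69 genes, and these 24 held 97.4% of the summed FPKM of all 69. The pore-forming calcium channel subunits had 4 genes in that range and the TRP channels 6, while the γ subunits and the ryanodine receptors had none. The plot of ND levels shows 23 of them by class.

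**Figure D1:**
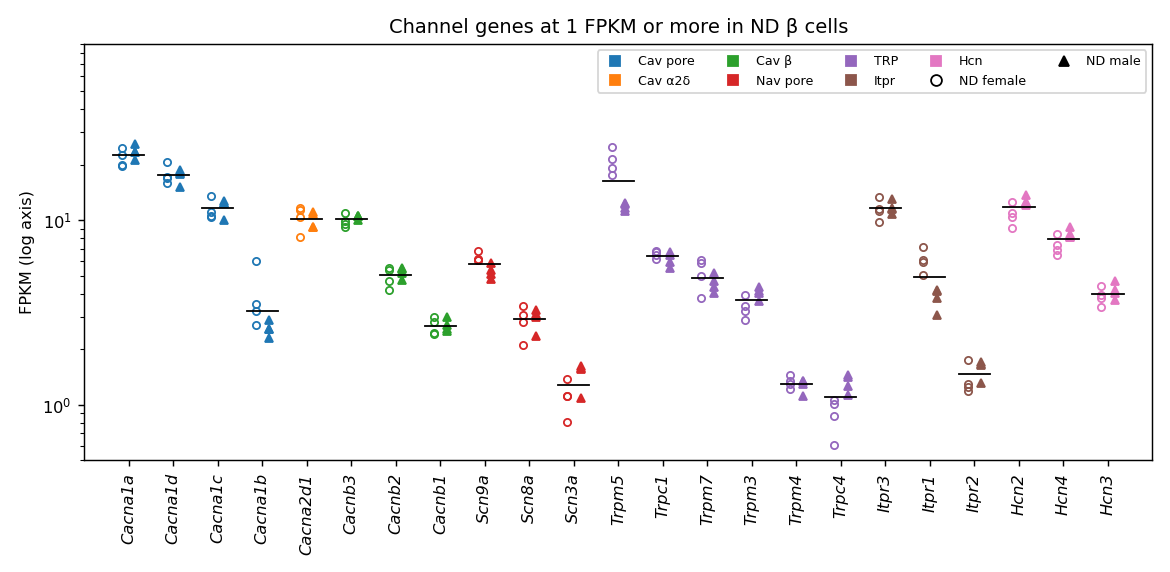
FPKM (log axis) of 23 of the 24 channel genes that averaged at least 1 FPKM in the 8 ND libraries, with ND females as open circles, ND males as triangles and the mean as a line, coloured by class. Cacna1a and Cacna1d stand highest, Trpm5 and Itpr1 lie higher in females, and 1 ND female library lies apart for Cacna1b.

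Among the pores, Cacna1a, the P/Q-type calcium channel, was the highest of all 69 genes at 22.6 ± 2.19 FPKM (SD, n = 8). Cacna1d and Cacna1c, the L-type channels through which much of the calcium for insulin release enters, followed at 17.5 ± 1.69 and 11.6 ± 1.30 FPKM. Cacna1b, the N-type channel, was lower at 3.23 ± 1.19 FPKM. Cacna1e, the R-type channel, was at 0.0988 ± 0.0749 FPKM, and the T-type genes Cacna1g and Cacna1h were at 0.0443 and 0.186 FPKM. Cacna2d1, an extracellular subunit that brings the pore to the membrane, made up 97.8% of the summed FPKM of its class. Cacnb3, a cytosolic subunit that regulates the pore, stood at 10.1 ± 0.621 FPKM, above Cacnb2 at 5.07 ± 0.487 and Cacnb1 at 2.68 ± 0.228 FPKM.

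The sodium channel pores were Scn9a at 5.79 ± 0.655, Scn8a at 2.90 ± 0.456 and Scn3a at 1.29 ± 0.296 FPKM. Among TRP channels, Trpm5, a calcium-activated channel for monovalent cations, led at 16.3 ± 5.22 FPKM. It was followed by Trpc1 at 6.36 ± 0.447, Trpm7, a channel fused to a kinase, at 4.87 ± 0.825, and Trpm3, a channel opened by heat and by pregnenolone sulfate, at 3.70 ± 0.499 FPKM. Trpm4, a close relative of Trpm5, was at 1.30 ± 0.0992 FPKM, and Trpm2, opened by ADP-ribose, was just below the line at 0.936 ± 0.137 FPKM. Itpr3 was the main inositol trisphosphate receptor at 11.6 ± 1.14 FPKM, with Itpr1 at 4.92 ± 1.38 and Itpr2 at 1.48 ± 0.236 FPKM. The ryanodine receptors were barely counted. Ryr3 was at 0.0754 FPKM, Ryr2 had counts in 7 of 24 libraries and Ryr1 in 5. Of the HCN channels, which carry an inward current on hyperpolarisation, Hcn2 was at 11.7 ± 1.48, Hcn4 at 7.86 ± 0.916 and Hcn3 at 4.002 ± 0.416 FPKM. In the order of ND levels, the neighbours Hcn2, Cacna1c and Itpr3 differed by less than their spread, as did Cacna2d1 and Cacnb3.

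The 20 genes that were not tested held 1 to 114 counts each over all 24 libraries and reached at most 0.0494 FPKM in ND. They included Trpa1, Cacna1s, Trpm8 and most of the γ subunits. These libraries come from bulk cells, so that fewer cells expressing a gene and less RNA per cell cannot be told apart. In HFD females 17 of the 69 genes had no count in any of the 4 libraries, and 4 of those, namely Trpv1, Trpv6, Cacna2d4 and Cacng7, were tested. The share of all genes without a count in these 4 libraries was not taken, so the 17 cannot be set against it. The number of tested channel genes at 0 was 6 to 17 of 49 in an HFD female library and 0 to 9 in the others. The plot of channel genes without a count sets this beside the genes detected in each library.

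**Figure D2:**
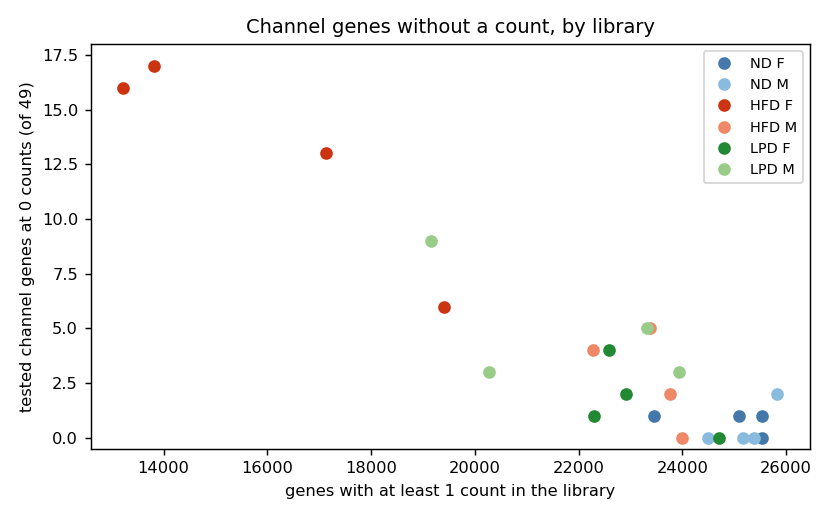
Number of the 49 tested channel genes with 0 counts (y axis) against the number of genes with at least 1 count (x axis) in each of the 24 libraries, coloured by group. The 4 HFD female libraries reach 6 to 17 genes at 0 and lie towards the left, with 13225 to 19404 genes detected. LPD male 2, with 19160 genes detected and 9 at 0, lies beyond HFD female 2, with 19404 and 6.

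The first question was whether the 6 groups differed at all. Of the 49 tested genes, 11 did so at an adjusted p below 0.05 (edgeR quasi-likelihood F test, Benjamini-Hochberg over all 19235 genes), where 11.7% of all tested genes did. They included, in order of p, Trpm3, Itpr1, Trpm5, Scn3a, Cacna2d4, Itpr3, Cacna1b, Hcn4 and Cacnb3. Counting every comparison, 18 of the 49 were called at least once, where 19% of all tested genes were, with 10 of the 24 genes at 1 FPKM or more and 8 of the 25 below it. By class, beside the same 19%, 2 of 3 inositol trisphosphate receptors, 2 of 3 γ subunits and 1 of 1 ryanodine receptors were called. The TRP channels had 4 of 15, the calcium channel pores 2 of 9 and the sodium channel pores 1 of 4. The Cacna2d genes had 1 of 3 and the Cacnb genes 1 of 4. Classes with a called gene not reported by name are left out, and the small classes hold too few genes to rank.

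Trpm3 gave the clearest difference with maternal diet. The gene lies on chr19:22139046-22995410 (GRCm38, ENSMUSG00000052387.16). The levels here and below are CPM after TMM scaling, listed for libraries 1 to 4 of each group. ND females held 82.4, 86.5, 73.6 and 71.3 CPM, and ND males 105, 100.2, 105 and 97.3 CPM. HFD females held 34.3, 37.9, 31.6 and 21.9 CPM, and HFD males 58.2, 34.0, 37.6 and 40.3 CPM. LPD females held 84.3, 83.2, 74.8 and 80.7 CPM, and LPD males 81.6, 68.3, 69.8 and 109.5 CPM. The 8 libraries named HFD were thus the 8 lowest of the 24, and they overlapped neither the ND nor the LPD libraries.

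Against ND over both sexes, Trpm3 fell by 1.29 ± 0.11 (log2, SE), a 2.44-fold lower level, with an adjusted p of 4.94e-08 (edgeR). Trpm3 fell by 1.32 ± 0.16 in females (adjusted p = 1.58e-05) and by 1.26 ± 0.16 in males (adjusted p = 4.82e-05). The difference between the sexes in this effect was 0.06 ± 0.22, with a 95% interval of -0.41 to 0.52. Against LPD, the HFD libraries were lower by 2.23-fold (adjusted p = 2.81e-07), whereas LPD and ND differed by -0.13 ± 0.11 (adjusted p = 0.904). Without any 1 of the 24 libraries the call against ND remained, with log2 values of -1.39 to -1.22. The library numbers, taken in place of the column names, give 1.15 in the opposite direction. The hepatocyte marker sum is high in the same 8 libraries, and its part in the result was not tested.

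A pair of genes on the opposite strand overlaps Trpm3 in the annotation, and the strand setting of the counting is not given in the sources used here. Gm27151, an antisense gene, held 97 to 187 counts in the 8 ND libraries and 0 to 76 in the 8 HFD libraries. C330002G04Rik, a long noncoding RNA gene, held 8 to 35 counts in ND and 0 to 27 in HFD. Over all libraries their counts came to 7.68% and 0.978% of those of Trpm3.

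Trpm3 also carries Mir204, whose hairpin lies at chr19:22750605-22750672 (GRCm38, RefSeq) and overlaps none of its annotated exons. A sister microRNA gene, Mir211, lies within Trpm1, the closest relative of Trpm3, at chr7:64205806-64205911. The mature strands, credited to RefSeq, are shown because they are encoded within these channel genes. The capitals mark the seed, bases 2 to 8, which the pair shares.
mmu-miR-204-5p: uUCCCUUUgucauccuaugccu
mmu-miR-211-5p: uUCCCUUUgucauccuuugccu
These libraries do not measure the mature strands. The row of the Mir204 gene held 0 to 21 counts per library. Trpm1 was scarcely counted, at 0.0233 ± 0.0201 FPKM in ND.

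**Figure D3:**
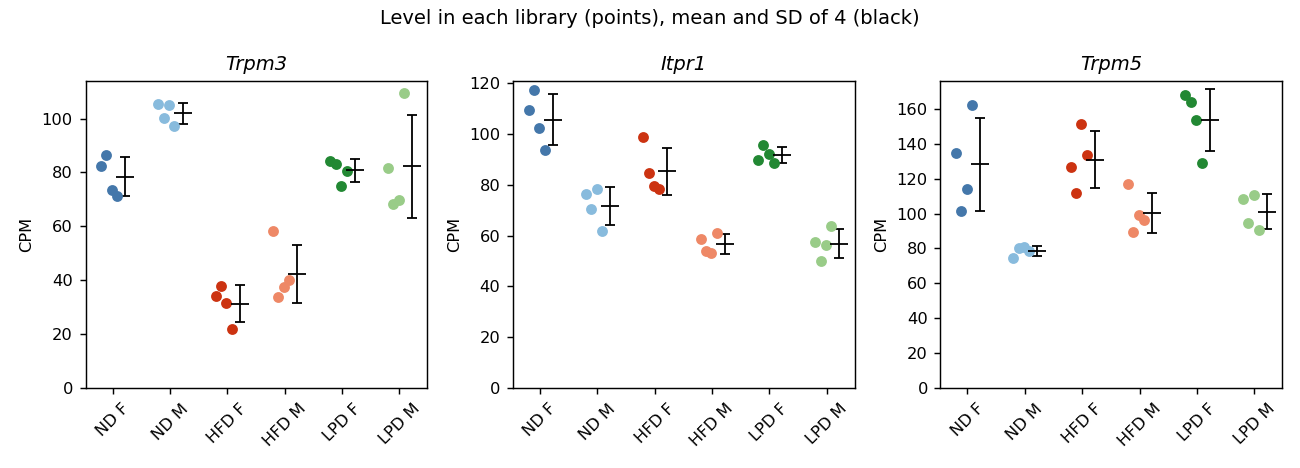
CPM after TMM scaling of Trpm3, Itpr1 and Trpm5 in each of the 24 libraries (points, 4 per group), with the mean and SD of each group in black (F, females; M, males). Trpm3 is low in both HFD groups, at 21.9 to 58.2 CPM against 68.3 CPM or more elsewhere, whereas Itpr1 separates the sexes and Trpm5 does so in part.

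The comparison of 8 HFD with 8 ND libraries called 7 of the 49 genes, 2 higher and 5 lower, where 7.2% of all genes were called, 1.67% higher and 5.52% lower. Without HFD female 2 the count was 11. Over the 49 genes the median log2 fold change was -0.06, the same to 2 decimals as over all genes tested. Cacna1b was among the 2 that rose, and the 5 that fell were Trpm3, Itpr1, Cacna2d4, Trpv1 and Trpv6. Only Trpm3 had groups that did not overlap, 1 of 49 where the share was 0.806% over all genes.

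Cacna1b, the N-type pore, rose by 0.52 ± 0.15 (log2, adjusted p = 0.0358). Its levels were 40.2 to 59.5 CPM in the 8 HFD libraries and 25.0 to 31.5 CPM in 7 ND libraries, with ND female 4 at 60.8 CPM. Without that library the log2 fold change was 0.68 and the adjusted p 0.00187. The call was lost without any 1 of ND females 1 to 3 and ND males 1, 2 and 4. It was also lost without any 1 of HFD female 4 and the 4 HFD males (adjusted p up to 0.0847 over all these fits). Against LPD, Cacna1b was also higher, by 0.55 ± 0.15 (log2, adjusted p = 0.0204).

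Itpr1, the inositol trisphosphate receptor best known from cerebellum, was lower by 0.32 ± 0.07 (adjusted p = 0.00511). Neither sex passed alone, at -0.31 ± 0.10 in females (adjusted p = 0.0505) and -0.34 ± 0.10 in males (adjusted p = 0.102), and the 95% interval of the difference between them was -0.32 to 0.26. Its values in each library are given with the comparison of the sexes below. The log2(FPKM + 1) and log2(FPKM + 0.1) fits with limma did not call it.

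The other 3 that fell were close to the limit of detection. Cacna2d4, a calcium channel accessory subunit known from retina, held 0.497, 0.357, 0.721 and 0.358 CPM in ND females and had no count in any HFD female library. That is at least 11.8-fold lower, taking 3 counts over the 4 libraries as the floor. Lrtm2, which overlaps Cacna2d4 on the opposite strand, held 93.6% of its counts, and the call against ND was not made without the filter on low counts, by voom or on log2 FPKM. In males its 4 HFD libraries, at 0.298 to 0.928 CPM, overlapped the 4 ND libraries at 0.276 to 0.522 CPM. Trpv1, the capsaicin receptor, was at 0.270 to 0.835 CPM in ND females and at 0 in HFD females, at least 11.95-fold lower by the same floor. In males it was at 0.210 to 0.751 CPM under ND and at 0 to 0.286 CPM under HFD. Under LPD, Trpv1 held 0.521, 0.0776, 0 and 0 CPM in females and 0, 0, 0 and 0.230 CPM in males. Its call over both sexes was not made by voom. Its call in females was made neither by voom nor without HFD females 1 and 4. Trpv6, an epithelial calcium channel, was at 0 in 7 of the 8 HFD libraries and at most 0.630 CPM under ND. Its call against ND was lost without any 1 of ND females 2 and 3, the 4 ND males and HFD males 1, 2 and 4 (adjusted p up to 0.0883), without HFD females 1 and 4, by voom and on log2 FPKM. The floor covers counting error only, and the part of the low number of genes detected in HFD females was not tested.

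Within females, HFD against ND called 6 of the 49 genes, 3 higher and 3 lower, where 9.33% of all genes were called, 1.98% higher and 7.35% lower. The count was 14 without HFD female 2 and 4 without ND female 3. The 3 that fell were Trpm3, Cacna2d4 and Trpv1, and Ryr3 and Cacng4 were among those that rose. Ryr3, a ryanodine receptor that releases calcium from internal stores, held 3.25, 4.26, 2.63 and 3.84 CPM in HFD females and 0.813, 0.804, 0.315 and 1.67 CPM in ND females, with no overlap. Its log2 fold change was 1.95 ± 0.51 (adjusted p = 0.0146), and without ND female 3 the adjusted p was 0.0587. Aven, which overlaps Ryr3 on the other strand, held 608% of its counts. Cacng4, a γ subunit better known as a partner of AMPA receptors, rose from 0.270 to 0.948 CPM up to 1.58 to 3.62 CPM, by 1.95 ± 0.57 (adjusted p = 0.0288), a call that ended without any 1 of ND females 2, 3 and 4 (adjusted p up to 0.106). Between the 4 HFD and the 4 ND females 11 of the 49 genes did not overlap, where the share over all genes was 11.2%. Fitted on the 8 female libraries alone, the only gene called of 39 tested was Trpm3, where 0.16% of all genes were called.

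Within males, the same comparison called 1 of the 49 genes, Trpm3, where 1.25% of all genes were called. This count depended on the libraries in the fit. It was 2 without HFD male 4. Without the 4 HFD female libraries 5 of 48 were called (5.25% of all genes), and in a fit of the 8 male libraries alone 15 of 39 (14.5% of all genes), 6 higher and 9 lower. The 5 were Trpm3, Itpr2 (-0.49, adjusted p = 0.0167), Cacna1e (2.30, adjusted p = 0.0287), Hcn4 (-0.45, adjusted p = 0.0397) and Itpr1 (-0.32, adjusted p = 0.0466). In the fit of 8 the calcium pores Cacna1a and Cacna1c were also lower, by 0.34 and 0.24, and Cacna1b and Trpm5 higher, by 0.65 and 0.37 (log2). The levels of 14 of the 49 genes did not overlap between the 4 HFD and the 4 ND males, where the share over all genes was 17.7%.

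**Figure D4:**
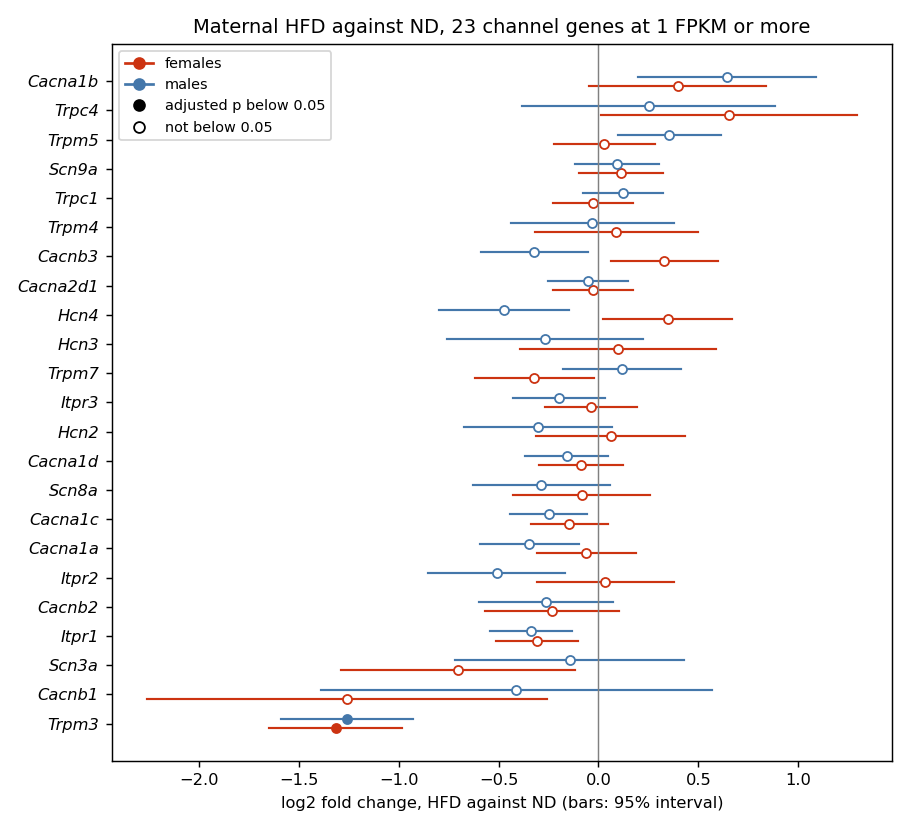
Log2 fold change of HFD against ND in females (red) and males (blue) for 23 channel genes at 1 FPKM or more, with 95% intervals, filled where the adjusted p was below 0.05. Trpm3 lies at -1.32 in females and -1.26 in males, and Hcn4 and Cacnb3 lie on opposite sides of 0 in the 2 sexes.

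The test of whether the HFD effect differed between the sexes called 3 of the 49 genes, where 3.64% of all genes were called. The count was 5 without HFD female 2, and 1 without any of ND females 1 and 3, the 4 ND males, HFD female 1 and HFD males 1 to 3. Hcn4, the main pacemaker channel of the heart, held 43.9, 46.2, 39.3 and 40.2 CPM in ND females and 58.8, 45.1, 41.1 and 71.1 CPM in HFD females. ND males held 51.2, 50.4, 58.7 and 54.8 CPM, and HFD males 34.9, 34.4, 34.2 and 51.5 CPM. The estimate was 0.35 ± 0.16 in females (adjusted p = 0.192) and -0.47 ± 0.16 in males (adjusted p = 0.172), and the difference between them -0.82 ± 0.22 (adjusted p = 0.0385). Cacnb3, the main cytosolic calcium channel subunit, had the same shape. It held 34.3 to 40.2 CPM in ND females and 43.3 to 50.2 CPM in HFD females, and 41.1 to 46.4 CPM in ND males and 30.7 to 38.4 CPM in HFD males. Neither sex overlapped between the diets, and the difference was -0.65 ± 0.18 (adjusted p = 0.0454). Both calls were marginal. Leaving out 1 library at a time kept the call of Hcn4 in 12 of 24 fits (adjusted p up to 0.0901) and that of Cacnb3 in 8 of 24 (adjusted p up to 0.103). Without HFD females 1 and 4 neither was called. The third was Cacna2d4, at 0 in all HFD females.

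**Figure D5:**
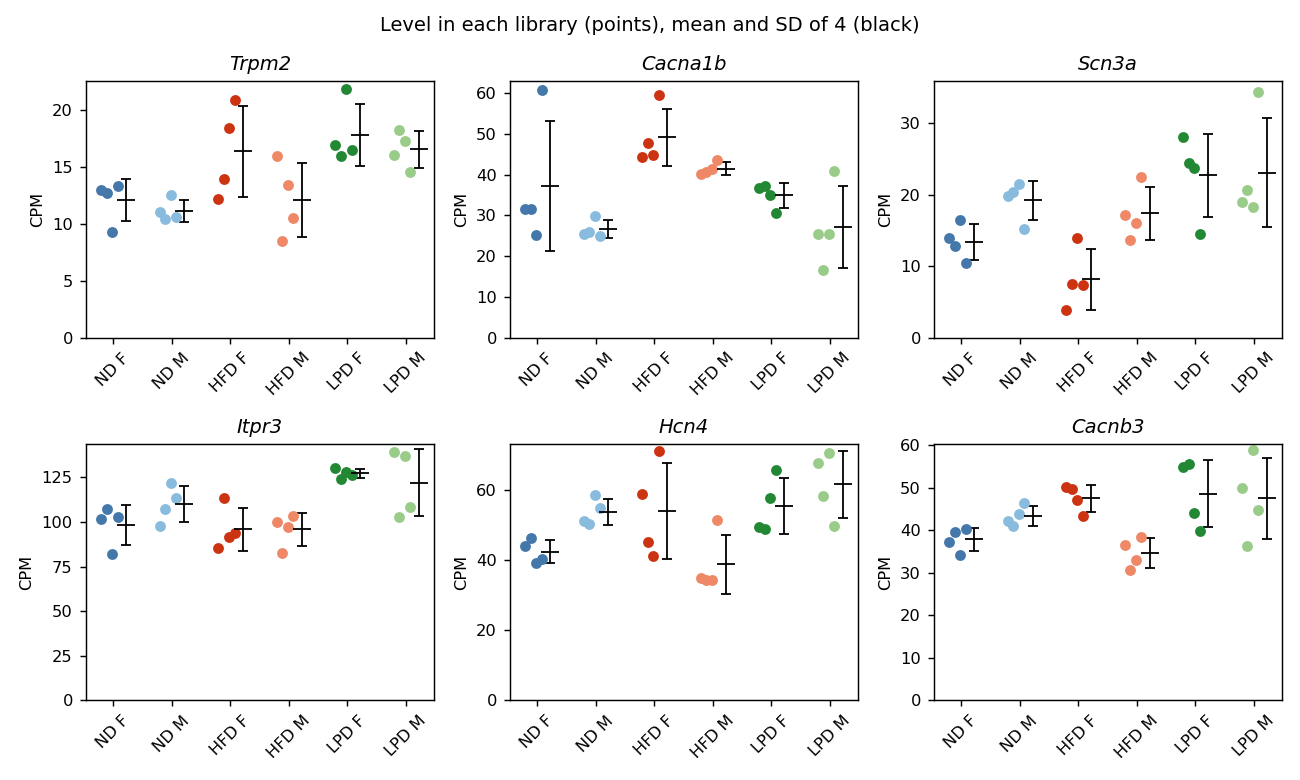
CPM after TMM scaling of Trpm2, Cacna1b, Scn3a, Itpr3, Hcn4 and Cacnb3 in each of the 24 libraries (points, 4 per group), with the mean and SD of each group in black (F, females; M, males). Cacna1b stands higher in HFD libraries than in the ND libraries other than ND female 4, Trpm2 stands higher in LPD than in ND libraries, and Cacnb3 is higher in HFD females and lower in HFD males than under ND.

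The comparison of 8 LPD with 8 ND libraries called none of the 49 genes (edgeR), where 0.832% of all genes were called. At an unadjusted p below 0.05 there were 12, DESeq2 called 3, limma voom with library weights 18, and limma on log2 FPKM 0 or 1 by pseudocount. Trpm2 came closest. ND females held 13.0, 12.7, 9.28 and 13.3 CPM, and ND males 11.0, 10.4, 12.5 and 10.5 CPM. LPD females held 16.9, 15.9, 21.8 and 16.4 CPM, and LPD males 15.99, 18.2, 17.3 and 14.5 CPM. The 8 LPD libraries were all above the 8 ND libraries, and the log2 fold change was 0.56 ± 0.14 (adjusted p = 0.0584). Of the 49 genes, 2 did not overlap, Trpm2 and Trpc1, where the share over all genes was 0.463%. Trpc1 differed by 0.18 ± 0.07 (adjusted p = 0.303).

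The next in order were Itpr1 at -0.27 ± 0.07 (adjusted p = 0.065), Trpm5 at 0.31 ± 0.09 (adjusted p = 0.0948) and Itpr3 at 0.26 ± 0.08 (adjusted p = 0.138). A fit without the 4 HFD female libraries called 6 of 48 genes (5.37% of all genes), with Trpm2, Trpm5, Scn3a, Itpr3 and Scn2a higher and Itpr1 lower. There the log2 values moved little, to 0.56 for Trpm2 (adjusted p = 0.00592), -0.28 for Itpr1 (adjusted p = 0.0145) and 0.30 for Trpm5 (adjusted p = 0.0301). Within each sex LPD against ND called 0 of 49, where 0.307% of all genes were called in females and 0.187% in males. At an unadjusted p below 0.05 there were 8 in each sex, DESeq2 called 1 in females (Itpr3) and 0 in males, and limma voom with library weights 6 and 17. The groups did not overlap for 5 of the 49 genes in females and 9 in males, where the shares over all genes were 9.92% and 10.1%. The difference between the sexes in the LPD effect was called for 0 of 49 genes as well, with 0.0052% of all genes, 2 at an unadjusted p below 0.05, 0 by DESeq2 and 3 by limma voom.

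The 2 altered diets differed from each other at 8 of the 49 genes, where 9.99% of all genes were called. Under HFD 2 were higher (2.38% of all genes) and 6 lower (7.61% of all genes), and 1, Trpm3, did not overlap (0.879% of all genes). The count was 5 without HFD male 2 or LPD male 3. This comparison shares its HFD libraries with those above. Beside Trpm3 and Cacna1b it called Itpr3, Scn3a, Cacna1e, Hcn2, Hcn4 and Trpv6. Itpr3, the main inositol trisphosphate receptor by level, held 85.5, 113, 91.4 and 93.9 CPM among HFD females and 100.3, 82.7, 97.2 and 104 CPM among HFD males. LPD females held 130.4, 124, 128 and 127 CPM, and LPD males 139, 103, 137 and 109 CPM. HFD was lower by 1.30-fold (adjusted p = 0.00303), and the ND libraries held 82.2 to 122 CPM. Scn3a, a sodium channel pore, was lower by 1.91-fold (adjusted p = 0.00335). It held 3.81 to 14.0 CPM among HFD females and 14.5 to 28.1 CPM in LPD females, and 13.7 to 22.5 CPM among HFD males against 18.2 to 34.4 CPM in LPD males.

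Cacna1e, the R-type pore, was 6.09-fold higher under HFD than under LPD (log2 2.61, adjusted p = 0.0144), though low throughout. Without LPD male 4 the log2 value was 3.35. It held 0, 5.03, 5.89 and 6.26 CPM among HFD females and 3.36, 6.57, 4.17 and 5.10 CPM among HFD males. LPD females held 2.60, 2.25, 0.572 and 0.363 CPM, and LPD males 0, 0, 0.387 and 1.15 CPM. HFD female 1 was the only HFD library not above all LPD libraries. Hcn2 was 1.35-fold lower (adjusted p = 0.0301) and Hcn4 1.28-fold lower (adjusted p = 0.0419). The group means of Hcn4 were 54.0 CPM in HFD females and 55.4 CPM in LPD females, but 38.8 CPM in HFD males and 61.6 CPM in LPD males. The call of Hcn2 was lost without any 1 of HFD males 2 and 3, LPD males 1 and 3 and LPD females 3 and 4 (adjusted p up to 0.0762), and that of Hcn4 in 14 of the 24 fits that left out 1 library (adjusted p up to 0.0962). The call of Trpv6 was lost without any 1 of HFD males 1, 2 and 4, LPD males 3 and 4 and LPD female 1 (adjusted p up to 0.188). The fit of the 16 HFD and LPD libraries alone called 4 of 43 genes (5.05% of all genes), Trpm3, Itpr3, Scn3a and Cacna1b, so that Cacna1e (adjusted p = 0.0847), Hcn2 and Hcn4 lost their calls and Trpv6 did not pass the filter. All 8 calls go under the library numbers, where 0 of 49 were called, since these compare the columns named LPD with those named ND.

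The sexes were compared over all diets together, and not within each diet. In this comparison 12 male against 12 female libraries called 5 of the 49 genes, 3 lower and 2 higher in males, where 4.87% of all genes were called, 1.28% lower and 3.59% higher. The count was 9 without HFD female 2. Itpr1 (chr6:108213096-108551109, GRCm38, ENSMUSG00000030102.11) was lower in males. Females held 109, 117, 102 and 93.6 CPM under ND, 98.5, 84.7, 79.5 and 78.4 under HFD, and 89.9, 95.6, 92.1 and 88.5 under LPD. Males held 76.3, 70.4, 78.3 and 61.8 CPM under ND, 58.6, 53.9, 53.1 and 61.2 under HFD, and 57.6, 49.9, 56.3 and 63.7 under LPD. All 12 male libraries were below all 12 female libraries, by 0.61 ± 0.06 on the log2 scale or 1.53-fold (adjusted p = 1.23e-07, edgeR). Groups did not overlap for 2 of 49 genes, Itpr1 among them, where the share over all genes was 0.182%.

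Trpm5 (chr7:143069153-143094642, ENSMUSG00000009246.14), the TRP channel with the highest ND level, was also lower in males. Females held 135, 101, 114 and 162 CPM under ND, 127, 112, 151 and 134 under HFD, and 168, 164, 153 and 129 under LPD. Males held 74.4, 80.4, 80.8 and 78.3 CPM under ND, 117, 89.5, 99.1 and 96.2 under HFD, and 108, 94.7, 110.5 and 90.4 under LPD. Of the 12 male libraries, 9 were below all females, and the level was 1.48-fold lower (log2 -0.56 ± 0.07, adjusted p = 1.41e-05). Tssc4 overlaps Trpm5 on the opposite strand and held 103% of its counts. The calls of Itpr1 and Trpm5 remained without any 1 library. Under the library numbers that of Itpr1 stayed, while Trpm5 was at -0.09 (adjusted p = 0.658). The 2 genes called as higher in males were Cacna2d4 and Cacng7, both at 0 in all HFD females. Under ND and under LPD both overlapped between the sexes. Cacna2d4 held 0.357 to 0.721 CPM in ND females and 0.276 to 0.522 CPM in ND males. Under LPD it held 0.0808 to 0.349 CPM in females and 0 to 0.364 CPM in males. Cacng7, a γ subunit, reached at most 1.55 CPM, and only 6 of the 24 fits that left out 1 library called it (adjusted p up to 0.101).

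The L-type and P/Q-type pores were among the genes that passed in no comparison of the main edgeR fit of the 24 libraries. Of the 24 genes at 1 FPKM or more, 14 were not called there, namely Cacna1a, Cacna1d, Cacna1c, Cacna2d1, Trpc1, Scn9a, Cacnb2, Trpm7, Hcn3, Scn8a, Cacnb1, Itpr2, Trpm4 and Trpc4. Their highest group mean was 1.08 to 2.78 times the lowest. Cacna1a ranged from 235 CPM in HFD males to 299 CPM in ND males, Cacna1d from 240.4 to 274 and Cacna1c from 215 to 269 CPM (group means). For HFD against ND over both sexes the 95% intervals were -0.38 to -0.03 for Cacna1a, -0.27 to 0.02 for Cacna1d and -0.33 to -0.06 for Cacna1c on the log2 scale, with adjusted p of 0.172, 0.377 and 0.0711. Cacnb1 had the widest ratio, from 4.75 CPM in HFD females, with 1 library at 0, to 13.2 CPM in LPD males. DESeq2 called Cacnb1 for HFD against LPD (log2 -0.90, adjusted p = 0.0392) and for HFD against ND in females (-1.25, adjusted p = 0.0437). Without HFD females 1 and 4, edgeR called it for HFD against ND (-0.52, adjusted p = 0.00783) and HFD against LPD (-0.61, adjusted p = 0.00169). Trpm4 had the narrowest, 13.6 to 14.6 CPM. Trpc4 held 9.97 to 17.3 CPM in males and 4.97 to 8.44 CPM in females other than HFD female 1, at 22.3 CPM. Between the sexes its adjusted p was 0.0818. Without HFD females 1 and 4 it was called as higher in males, by 0.83 on the log2 scale (adjusted p = 2.19e-05, edgeR). The channel genes together took 0.151% to 0.216% of all counts in a library.

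Genes that handle calcium around these channels were examined as a list of 67, of which 58 were tested. For any difference among the groups 10 of the 58 were called, beside 11.7% of all genes. HFD against ND called 1 of them (7.2% of all genes), Calm3, a calmodulin gene, at -0.31 ± 0.08 (adjusted p = 0.0261). LPD against ND called 2 (0.832% of all genes), both pumps. Atp2b2, a plasma membrane calcium pump, rose by 0.34 ± 0.07 (adjusted p = 0.0114), from 80.6 to 111 CPM in the 8 ND libraries to 112 to 140.4 CPM in the 8 LPD libraries, and Atp2a3, an endoplasmic reticulum calcium pump, by 0.31 ± 0.07 (adjusted p = 0.0405). HFD against LPD called 7 (9.99% of all genes), with Atp2b2, Atp2b4, Atp2a3, Calm3 and Unc80 lower and Camk4 and Smdt1 higher under HFD. The largest of the pump differences was that of Atp2b4 at -0.55 ± 0.10 (adjusted p = 0.000819). Males against females called 5 of the 58 (4.87% of all genes). Fam155a, a subunit of the NALCN sodium leak channel, was lower in males, at 58.9 to 82.2 CPM against 84.5 to 134 CPM in females (log2 -0.58 ± 0.07, adjusted p = 4.33e-06). Fkbp1b, which binds ryanodine receptors, and Camk2b, a calcium-dependent kinase, were lower too, and Saraf, a regulator of store-operated calcium entry, and Fgf12, a partner of sodium channels, were higher, each by 0.38 or less on the log2 scale.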

How the data were processed

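The authors deposited raw counts per gene and FPKM for 24 RNA-seq libraries of sorted β cells. The deposited FPKM equal counts divided by gene length and column total (largest difference 0.0005). Per the labels, cutadapt 2.10, STAR 2.7.8a, HOMER and DESeq2 were used with build GRCm38.p6, with no role for each. How reads were counted, and on which strand, is not given in the sources used here. Columns were matched to samples by name. After filterByExpr, counts were TMM-scaled and fitted with 6 group means and no covariate in edgeR 4.0.16 (R 4.3.3, limma 3.58.1), and quasi-likelihood F tests gave 11 comparisons. Genes were called at a Benjamini-Hochberg adjusted p below 0.05 over all 19235 tested. SE was the absolute log2 fold change over the square root of F. CPM are scaled to the TMM-adjusted library total, and marker sums, Ins2 included, use the unscaled total. The script was tested on simulated data. Where every library of a group was at 0, a floor of 3 counts over the group gave the bound. A library's floor of 3 counts was 0.114 to 0.241 CPM. No pair of replicates agreed within sampling noise (lowest chi-square per degree of freedom 5.04). Members and gene lists were chosen with earlier results of these data known. The text names members called in any comparison, a list of channels known in β cells and the 12 highest by ND FPKM, and up to 4 called partners per comparison, except Cacna1s, Trpm8, Trpm1, Scn2a, Camk2b, Unc80, Camk4 and Smdt1, named after their values were seen. Alternatives were DESeq2 size factors in edgeR, no filter, a replicate block, fits without doubtful libraries or on the compared libraries only, limma (voom with library weights, and log2 FPKM with pseudocounts of 1 and 0.1), DESeq2 1.42.0, matching by library number and leaving out each library. A fold change on the log2(FPKM + 1) scale understates low genes. Results of 2 called genes are not reported here by name, and both remain in the counts, except those of libraries far from their group.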

Additional observations from a re-analysis of the deposited data

Results flagged for a closer look

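Among 92 sets of 4 libraries (16 called genes in 6 groups, sets with no range left out), 8 held a library far from the other 3. About 1 in 20, or 4.6, would do so by chance for normally spread values. That rate does not apply to the Trpv1 and Trpv6 sets below, where other libraries were at 0. The count of 8 is therefore not read against it. In LPD male 4, Scn3a was at 34.4 CPM against 18.2 to 20.7 in the other 3, and Trpv1 at 0.230 against 0. In LPD female 1, Trpv1 was at 0.521 CPM and Trpv6 at 0.651 CPM, each against at most 0.0776. Hcn4 was at 51.5 CPM in HFD male 4 against 34.2 to 34.9, and Trpv6 at 0.119 CPM in HFD male 3 against 0. Ryr3 was at 2.61 CPM in LPD female 3 against 1.36 to 1.43, and at 2.44 CPM in LPD male 2 against 1.06 to 1.26.

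The HFD effect differed between the sexes by the test of the difference itself for 3 genes, Cacna2d4 (6.82, log2, males minus females), Hcn4 (-0.82) and Cacnb3 (-0.65), with adjusted p of 0.0155, 0.0385 and 0.0454 (edgeR). The value for Cacna2d4 rests on a group at 0 in all 4 libraries and is no bound.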

How the results depend on the processing

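The call of Itpr1 between the sexes held under all alternatives run, and that of Trpm3 (HFD against ND) under all that kept the column names. Matching columns by library number turned most diet effects round. By number the HFD against ND values were 1.15 for Trpm3, 0.053 for Itpr1, 1.92 for Cacna2d4, 1.65 for Trpv1, -0.55 for Cacna1b and 4.12 for Trpv6; in females 1.36 for Trpm3, 5.11 for Cacna2d4, -1.04 for Ryr3, 4.66 for Trpv1 and -1.51 for Cacng4; and in males 0.95 for Trpm3. LPD against ND became -0.28 for Trpm2, 0.32 for Itpr1 and -0.19 for Trpm5. HFD against LPD became 0.26 for Itpr3, 0.51 for Scn3a, -1.39 for Cacna1e, -0.033 for Cacna1b, 0.31 for Hcn2 and 0.29 for Hcn4. The sex difference in the HFD effect became -6.38 for Cacna2d4, 0.63 for Hcn4 and 0.42 for Cacnb3. Counts by number were 7 (LPD against ND), 0 (HFD against LPD), 2 (HFD, males), 10 and 3 (LPD, females and males), 1 and 6 (sex difference of HFD and LPD) and 2 (males against females).

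For any difference, 17 were called without HFD females 1 and 4 and 26 by voom with library weights. LPD against ND gave 2 without HFD females 1 and 4, 6 without all 4 HFD females, 6 in the compared libraries only, 18 by voom, 1 with log2(FPKM + 0.1) and 3 by DESeq2. The compared libraries alone gave 4 for HFD against LPD, 1 for HFD in females and 15 in males. HFD in females gave 3 by voom. HFD in males gave 5 without HFD females 1 and 4 or all 4, 20 by voom and 2 by DESeq2. LPD in females gave 6 by voom and 1 by DESeq2, and in males 17 by voom and 1 without HFD females 1 and 4 or all 4. The sex difference of HFD gave 0 with no filter and by voom, 1 with the replicate block and with log2(FPKM + 1), and 5 by DESeq2; that of LPD gave 3 by voom. Males against females gave 7 of 56 without HFD females 1 and 4 (7.27% of all genes). The cause was not tested.

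Leaving out 1 library gave 8 to 16 (any difference), 5 to 11 (HFD against ND), 0 to 2 (LPD against ND), 5 to 12 (HFD against LPD), 4 to 14 and 1 to 2 (HFD, females and males), 1 to 5 (sex difference of HFD), 4 to 9 (males against females) and 0 to 0 for the other 3. The highest counts came without HFD female 2, except for any difference (HFD female 1), LPD against ND (ND female 4, HFD females 1 and 4 or LPD male 4) and HFD in males (HFD male 4). No general pairing by replicate number was seen (1 of 60 same-number pairs correlated over 0.1, median -0.0041, and 0 of 180 different-number pairs). This cannot exclude a dam or litter shared by some of the libraries. The replicate block gave 8 for any difference, 6 for HFD against ND and 8 for HFD against LPD. It gave 6 for HFD in females and 4 for males against females. Of the tested genes, 4 were at 0 in all HFD females, and the part of depth in this was not tested.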
